A study of Mus musculus with 12 samples.

Results

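Hearts of mice given an anti-PD-1 antibody with vehicle (aPD1_veh, 4 libraries) were compared with hearts of mice given IgG with leflunomide (IgG_lef, 3 libraries). These are 7 of the 12 samples of the series, taken by their labels. The fourth IgG_lef sample was not analysed here, because its label matched no column name, and the third group of the series, aPD1_lef, enters only as a processing alternative. The study used mice bearing melanoma and asked about heart toxicity of the antibody and leflunomide's effect on it. The sources used here give no strain, sex, age, dose or schedule. Nor do they say that the libraries are from separate animals, so the p-values measure the spread between these libraries, which may be technical. Antibody and drug differ together between the groups, so their contributions cannot be told apart. In what follows, "rose" and "fell" describe aPD1_veh relative to IgG_lef.

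PD-1, encoded by Pdcd1, is an inhibitory receptor of T cells whose ligand PD-L1 is encoded by Cd274 and is induced by interferons. Leflunomide is converted in the body to a metabolite that inhibits the pyrimidine synthesis enzyme DHODH, and it is also an agonist of the aryl hydrocarbon receptor. Interferons signal through JAK kinases to transcription factors that include STAT2 and IRF9 and bind promoters of antiviral genes at a repeated TTTC (or, on the other strand, GAAA) element. The genes induced include nucleic acid sensors, antiviral effectors, the ISG15 conjugation system and interferon-inducible GTPases.

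The deposited values were treated as FPKM (fragments scaled by exon length and library depth), and their read depth is unknown. Library totals were 441935 to 465511 in aPD1_veh and 413628 to 440748 in IgG_lef, which did not overlap, and 11352 to 11922 genes per library reached a value of 1. The cardiomyocyte transcript Myh6 stood at 2704 to 3429 in the 7 libraries. In IgG_lef replicate 2 the atrial transcripts Myl7, Myl4 and Sln were 266.0, 195.9 and 86.8, against at most 1.78, 0.741 and 0.159 in the other 6 libraries. IgG_lef replicate 3 was the highest of the 7 libraries in summed collagen and matrix genes (1851.4, against 378.3 to 945.3) and macrophage markers (1131.3, against 346.0 to 751.5), and the lowest in erythroid markers (2451.6, against 6964.5 to 12939.9). The part of these differences in the results was not tested beyond leaving out each library in turn.

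Of 11802 genes tested, 412 (3.49%) passed an adjusted p of 0.05 in limma, 192 higher (1.63%) and 220 lower (1.86%) in aPD1_veh. On the scale of the fit, log2(value + 1), the large changes were mostly decreases, since 107 genes fell and 17 rose by at least 1. That scale understates changes of genes with low values, so part of this imbalance may come from it. Arntl, with a mean 4.69-fold higher in aPD1_veh, had a log2 change of 0.89 and is not among the 17. Scaling every library to one total gave 96 higher and 281 lower (25.5% higher, against 46.6% without it). Leaving out 1 library left 172 to 349 genes, with 180 without aPD1_veh replicate 2, 266 without aPD1_veh replicate 4, 209 without IgG_lef replicate 1 and 172 without IgG_lef replicate 3. The counts of genes that rose without these same 4 libraries were 74, 120, 50 and 66, and those that fell were 106, 146, 159 and 106. In every one of the 7 leave-one-out fits, 83 genes fell and 39 rose. The values of the 2 groups did not overlap for all 412 genes called, but also for 2247 of the genes tested (19.0%), of which 1343 were higher (11.4%) and 904 lower (7.66%) in aPD1_veh. Of the genes called, 16 that rose reached the minimum value of 1 in aPD1_veh alone and 13 that fell in IgG_lef alone, so they were tested only through the group where they are high.

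Some calls on named genes depended on the filter, the variance model or a replicate block, as well as on the settings given with each gene. Without the filter on low values, 24 of them missed the threshold (adjusted p from 0.0511 to 0.119): Ppbp, Nr4a3, Amy1, Hbb-b2, Nepn, Ube2l6, Ccl12, Col8a1, Ech1, Etfb, Mlycd, Acot2, Hlf, Bhlhe41, Nqo1, Gpihbp1, Cd36, Dck, Ccnd2, Fcgr1, Mavs, Vegfb, Ldhb and Bcat2. Without limma's trend Ube2l6, Etfb, Bhlhe41, Ccnd2 and Bcat2 also missed it (0.0502 to 0.0755), without robust weights Bhlhe41 (0.0531), and with a filter of 4 libraries Bcat2 (0.0506). With replicate number added to the fit as a block, 60 of the 84 calls among named genes were lost. These losses are not given with each gene. They included Ifit1 (limma adjusted p = 0.0625), Ddx58 (0.054), Stat2 (0.0625), Cxcl12 (0.0699), Mmp2 (0.0856), Lum (0.0862) and Mfap4 (0.0625). No member of the nucleic acid sensor list or the PARP list passed with the block. Counting is not stated to use strand, and exons of other annotated genes overlap those of several named genes, so their values may include reads of both. Same-strand overlaps included those of Herc6 (1269 bases), Amy1 (1128), Gbp7 (637) and Etfb (617), and overlaps on the opposite strand those of Bhlhe41 (1280), Dbp (539), Nppa (532), Myh7 (523) and Cd274 (511).

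The 12 largest decreases among the genes named by size were all on the interferon lists, and the promoters of 5 genes that fell show the shared element. Ifit1, an RNA-binding antiviral protein, Rsad2 (viperin), Isg15, a ubiquitin-like protein, the GTPase gene Gbp7 and the lectin gene Lgals9 are printed as examples of genes that fell and hold the element. Each run covers the 130 bases just upstream of the RefSeq start (GRCm38.p6), 5′ to 3′ on the gene's strand, and capitals mark TTTCNNTTTC or GAAANNGAAA, the same motif on either strand (overlapping matches run together).
Ifit1, chr19:34640759-34640888, plus strand: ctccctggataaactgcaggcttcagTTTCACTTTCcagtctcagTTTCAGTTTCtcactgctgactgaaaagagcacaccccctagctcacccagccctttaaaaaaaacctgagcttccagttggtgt
Rsad2, chr12:26456453-26456582, minus strand: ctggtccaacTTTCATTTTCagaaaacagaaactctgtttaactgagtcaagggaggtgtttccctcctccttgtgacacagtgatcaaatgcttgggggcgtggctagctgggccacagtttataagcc
Isg15, chr4:156200819-156200948, minus strand: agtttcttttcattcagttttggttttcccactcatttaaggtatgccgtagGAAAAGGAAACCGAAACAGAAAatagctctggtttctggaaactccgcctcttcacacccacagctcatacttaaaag
Gbp7, chr3:142530206-142530335, plus strand: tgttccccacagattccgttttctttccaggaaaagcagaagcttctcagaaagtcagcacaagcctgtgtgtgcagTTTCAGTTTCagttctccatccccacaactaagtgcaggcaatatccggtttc
Lgals9, chr11:78984925-78985054, minus strand: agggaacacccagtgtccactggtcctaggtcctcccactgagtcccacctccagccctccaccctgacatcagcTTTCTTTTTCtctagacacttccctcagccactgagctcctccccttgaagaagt

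Isg15 holds 3 overlapping matches, the first starting 78 bases before the start, Ifit1 holds 2, and the other genes hold 1 each. Over the full window of 250 bases before to 50 after the start, the motif was found in 1131 of 32851 RefSeq promoters (3.44%) and in 365 of 9491 genes tested that had a promoter entry (3.85%). Among genes that fell it was in 48 of 170 (28.2%), and among genes that rose in 5 of 152 (3.29%). Within the genes that fell, 27 of 43 on the interferon lists (62.8%) and 21 of 127 others (16.5%) held it. A match describes the letters of the window and not binding.

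Across 7 interferon lists, 54 of the 87 members tested fell, 1 rose and 32 did not pass, with a median log2 change of -1.47, against 0.0086 over all genes tested, of which 1.86% fell. The lists named 102 genes, of which 93 were in the table. The summed value of these genes was 980.0 to 1363.8 in the aPD1_veh libraries and 2338.2 to 4460.8 in IgG_lef, so the groups did not overlap. IgG_lef replicate 3 was the highest of its group for all 54 genes that fell, IgG_lef replicate 2 the lowest for 42, and aPD1_veh replicate 4 the lowest of its group for 50. Of the 54, 36 passed in each of the 7 leave-one-out fits. In a fit of all 11 matched libraries, 46 list members passed.

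**Figure D1:**
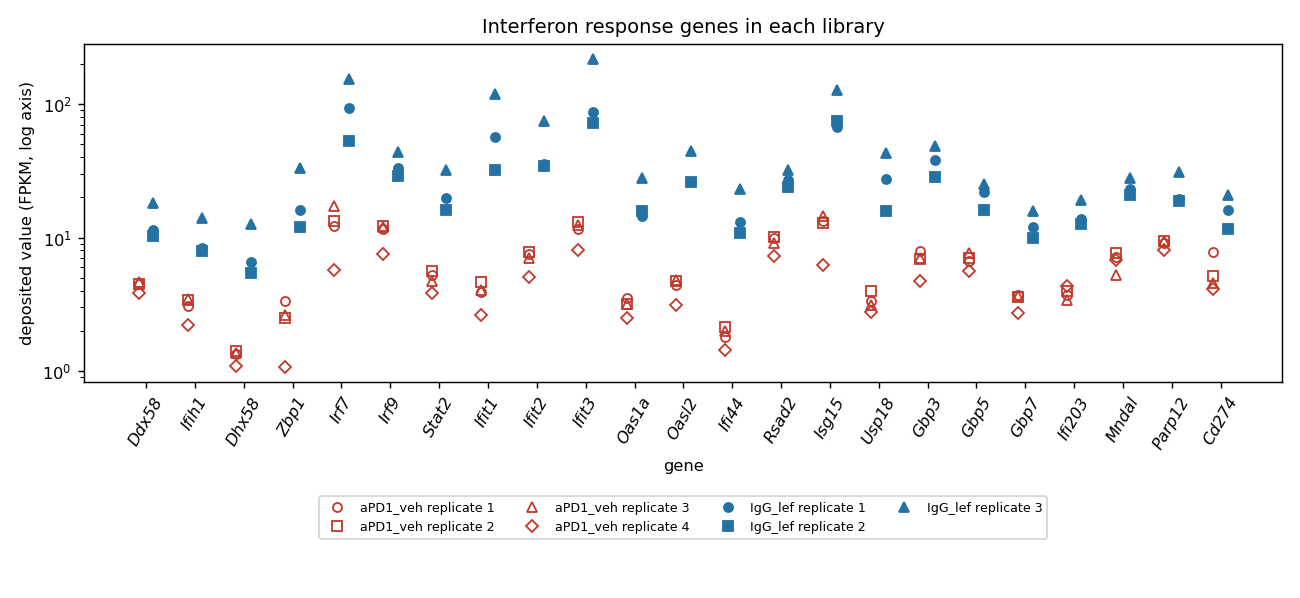
Deposited values (FPKM, log axis) of interferon response genes in each aPD1_veh library (open red) and IgG_lef library (filled blue), ordered by role from sensors to Cd274. All the genes drawn were called lower in aPD1_veh, so the separation of the groups follows from that choice. Interferon list members that did not pass, and Mavs, which rose, are not drawn. IgG_lef replicate 3 is the highest in every gene drawn.

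The sensors of viral nucleic acid were the first group. Of 10 tested, Ddx58, Ifih1, Dhx58 and Zbp1 fell, Mavs rose and 5 did not pass (median -0.58). Ddx58, which encodes the RNA sensor RIG-I (chr4:40203777-40239825), was 4.49, 4.49, 4.67 and 3.83 in aPD1_veh and 11.3, 10.2 and 18.2 in IgG_lef. Its log2 change was -1.37 ± 0.172 (SE, limma adjusted p = 0.00575). Ifih1, the RNA sensor MDA5, was 3.08, 3.39, 3.49 and 2.21 against 8.34, 7.87 and 14.1, a log2 change of -1.42 (limma adjusted p = 0.00961). The 4 aPD1_veh values of both sensors lay close together, below all 3 IgG_lef values. Dhx58 (LGP2, their regulator) had a mean 6.31-fold higher in IgG_lef (limma adjusted p = 0.0059). Zbp1, a sensor of Z-form nucleic acids, had a mean 8.48-fold higher in IgG_lef (limma adjusted p = 0.0229), a call lost without aPD1_veh replicate 2 (0.0788), aPD1_veh replicate 3 (0.067) or IgG_lef replicate 1 (0.0544). Mavs, the mitochondrial adaptor below RIG-I and MDA5, was 27.4 to 32 in aPD1_veh and 21.7 to 23.4 in IgG_lef, a log2 change of 0.39 (limma adjusted p = 0.0341). Mavs was the only list member that rose, and its call held only without aPD1_veh replicate 3 among the leave-one-out fits (0.0565 to 0.109 in the other 6), not with one total (0.0865) and not with all 11 libraries (0.591).

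The receptors for interferons did not pass, and of 13 receptor, kinase and transcription factor genes tested only Irf7, Irf9 and Stat2 fell (median -0.19). Irf9 (chr14:55603985-55610030), the DNA-binding partner of STAT2, was 11.5, 12.1, 11.9 and 7.59 in aPD1_veh and 33.3, 28.9 and 43.3 in IgG_lef (log2 change -1.62 ± 0.181 SE, limma adjusted p = 0.00453). Stat2 was 5.24, 5.63, 4.73 and 3.82 against 19.6, 16.2 and 31.9 (log2 change -1.96 ± 0.217 SE, limma adjusted p = 0.0049). Neither gene had overlapping groups, and both passed without any 1 library. Irf7, which amplifies interferon production, was 12.2, 13.4, 17.2 and 5.69 against 92.5, 53.1 and 152.4 (log2 change -2.90, limma adjusted p = 0.0331). The Irf7 call was lost without aPD1_veh replicate 1, 2 or 3 or IgG_lef replicate 1 or 3 (0.0617 to 0.0979). Ifnar1 and Ifnar2, the type I interferon receptor chains, had log2 changes of 0.00 and -0.06. Of 18 type I interferon genes in the table, 17 were listed at 0 in all 7 libraries, and the highest value of the other was 0.0666. Ifng was listed at 0 in all libraries but aPD1_veh replicate 1, where it was 0.125.

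The antiviral effectors held the largest decreases of the comparison, with 23 of 30 tested falling, 7 not passing and a median of -1.70. Ifit1, Ifit2, Ifit3 and Ifit3b, which lie side by side on chromosome 19, all fell. Ifit1 (chr19:34640889-34650009), whose promoter is printed above, was 3.92, 4.61, 4.06 and 2.61 in aPD1_veh and 56.1, 31.8 and 119.3 in IgG_lef. The IgG_lef libraries differed among themselves by more than 3-fold, yet the lowest was well above the highest aPD1_veh value. Its log2 change was -3.68 ± 0.432 (SE, limma adjusted p = 0.0118), and the ratio of group means was 0.055 over all libraries and 0.0865 without IgG_lef replicate 3. Ifit2 was 5.03 to 7.77 against 35.7, 34.2 and 74.1 (log2 change -2.56, limma adjusted p = 0.00699). Ifit3 and Ifit3b are near-identical copies between which reads may be split, so their values are uncertain. Ifit3 had a log2 change of -3.20 (limma adjusted p = 0.0128) and a ratio of means of 0.0906, or 0.142 without IgG_lef replicate 3. Ifit3b had -2.85 (limma adjusted p = 0.0367) and a ratio of 0.0994, or 0.175 without IgG_lef replicate 3, and passed only without IgG_lef replicate 2 or 3.

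The same list holds oligoadenylate synthetase genes, whose products activate RNase L or act on their own against RNA viruses. Those that fell were Oas1a, Oas1g, Oas2, Oasl1 and Oasl2, and Oas3 did not pass (log2 change -1.39, limma adjusted p = 0.0531). Oasl2 (chr5:114896926-114912245) was 4.44, 4.76, 4.78 and 3.12 in aPD1_veh and 26, 26 and 44.4 in IgG_lef, a log2 change of -2.62 ± 0.206 (SE, limma adjusted p = 0.00162). Oas1a was 2.49 to 3.5 against 14.6, 15.8 and 27.9 (log2 change -2.27, limma adjusted p = 0.00207); its reads may be shared with the similar gene Oas1g, which also fell. Ifi44 was 1.45 to 2.14 against 13.1, 10.8 and 23.2 (log2 change -2.49, limma adjusted p = 0.00226). No group overlapped for these genes, and the calls held in all 7 leave-one-out fits. Rsad2 (chr12:26442743-26456452), viperin, was 9.99, 10.1, 9.1 and 7.3 against 26.9, 23.9 and 31.9, and Cmpk2, its neighbour on chromosome 12, was 3.77 to 5.7 against 16, 20.4 and 22.4. Their log2 changes were -1.50 ± 0.128 and -1.87 ± 0.154 (SE, limma adjusted p = 0.00101 for both), and both missed the threshold when all 11 libraries were fitted (0.0527 and 0.0841). Slfn2, a schlafen gene, fell by 1.57 on the log2 scale (limma adjusted p = 0.00207). Members of this list that did not pass included Ifitm2 (log2 change 0.07, limma adjusted p = 0.762) and Isg20 (0.08, 0.818), chosen after their values were seen.

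The ISG15 system, which attaches a ubiquitin-like protein to newly made proteins, had 4 of 5 members that fell (median -1.42). Isg15 itself (chr4:156199424-156200818) was 13.2, 12.9, 14.5 and 6.27 in aPD1_veh and 67.1, 74.2 and 126.1 in IgG_lef (log2 change -2.83 ± 0.333 SE, limma adjusted p = 0.011). Usp18, which removes ISG15 and restrains the interferon receptor, was 3.34, 3.98, 3.1 and 2.79 against 27.6, 15.7 and 42.9 (log2 change -2.69 ± 0.3 SE, limma adjusted p = 0.00736). Herc6, the ligase of the mouse, was 0.671 to 1.48 against 4.49, 3.48 and 6.5 (limma adjusted p = 0.00912). These 3 genes passed in all 7 leave-one-out fits. The conjugating enzyme gene Ube2l6 changed less, at 19.9 to 29.3 against 32.9, 36.2 and 42.4 (log2 change -0.63, limma adjusted p = 0.0412), passed in the leave-one-out fits only without aPD1_veh replicate 3 (0.0633 to 0.146 without the others), and was lost with all 11 libraries (0.0976). The activating enzyme gene Uba7 did not pass (log2 change -1.10, limma adjusted p = 0.0642).

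Among the interferon-inducible GTPases, which act against intracellular microbes, 9 of 15 fell and 6 did not pass (median -1.62). Gbp3, Gbp5 and Gbp7 are neighbours on chromosome 3. Gbp3 was 7.94, 6.85, 7.08 and 4.75 in aPD1_veh and 37.9, 28.5 and 48.7 in IgG_lef (log2 change -2.35 ± 0.201 SE, limma adjusted p = 0.00207). Gbp7 was 2.72 to 3.72 against 12, 9.85 and 15.8 (log2 change -1.59, limma adjusted p = 0.00162), and Gbp5 had a mean 3.15-fold higher in IgG_lef (limma adjusted p = 0.00207). All 3 passed in each leave-one-out fit. Gbp9 on chromosome 5 was 6.51 to 8.66 against 16.8 to 23.8 (limma adjusted p = 0.00226, and 0.0527 with all 11 libraries), but shares 60 exon bases with each of 2 other Gbp genes. The IRG members Igtp and Irgm1 (chosen after their values were seen) had log2 changes of -1.77 and -1.82 but did not pass (limma adjusted p = 0.301 and 0.103). In IgG_lef their values were 45, 24.7 and 181.6 for Igtp and 50.8, 32.8 and 126.1 for Irgm1, so replicate 3 stood far above the other two.

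Of 8 p200 genes tested, a cluster on chromosome 1 of DNA-binding proteins, 6 fell and 2 did not pass (median -1.58). Of the 6, Ifi209 and Ifi213 reached the minimum value of 1 in IgG_lef alone. Mndal was 7.13, 7.64, 5.2 and 6.74 in aPD1_veh and 23.1, 20.9 and 27.9 in IgG_lef, a log2 change of -1.70 ± 0.134 (SE, limma adjusted p = 8.53e-04). Ifi203 was 3.41 to 4.37 against 13.8, 12.7 and 19.1 (log2 change -1.72 ± 0.136 SE, limma adjusted p = 8.53e-04). Both passed in every leave-one-out fit, but the genes share 37 exon bases. Ifi204 fell by 1.86 on the log2 scale (limma adjusted p = 0.0244), a call lost without any 1 of the aPD1_veh replicates or IgG_lef replicate 1 (0.0544 to 0.0766). Ifi213 was at 0.346 to 0.91 against 4.59, 3.67 and 7.27 (limma adjusted p = 0.00207), and with any IgG_lef library left out it was not tested. Of 6 interferon-inducible PARP genes, which modify proteins with ADP-ribose, 5 fell (median -1.22). Parp12 was 8.06 to 9.47 against 19.4, 18.8 and 30.7 (log2 change -1.23, limma adjusted p = 0.0059) and passed in every leave-one-out fit, as did Parp11 (log2 change -0.79, limma adjusted p = 0.015, but 0.298 with all 11 libraries). The neighbours Parp9 and Dtx3l, which share 458 exon bases on opposite strands and cannot be separated without strand, fell by 1.63 and 1.20 on the log2 scale (limma adjusted p = 0.0204 and 0.0153). The Parp9 call was lost without aPD1_veh replicate 2 (0.066) or 3 (0.0626) or IgG_lef replicate 1 (0.0609), and that of Dtx3l without aPD1_veh replicate 2 (0.0539) or 3 (0.0504).

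**Figure D2:**
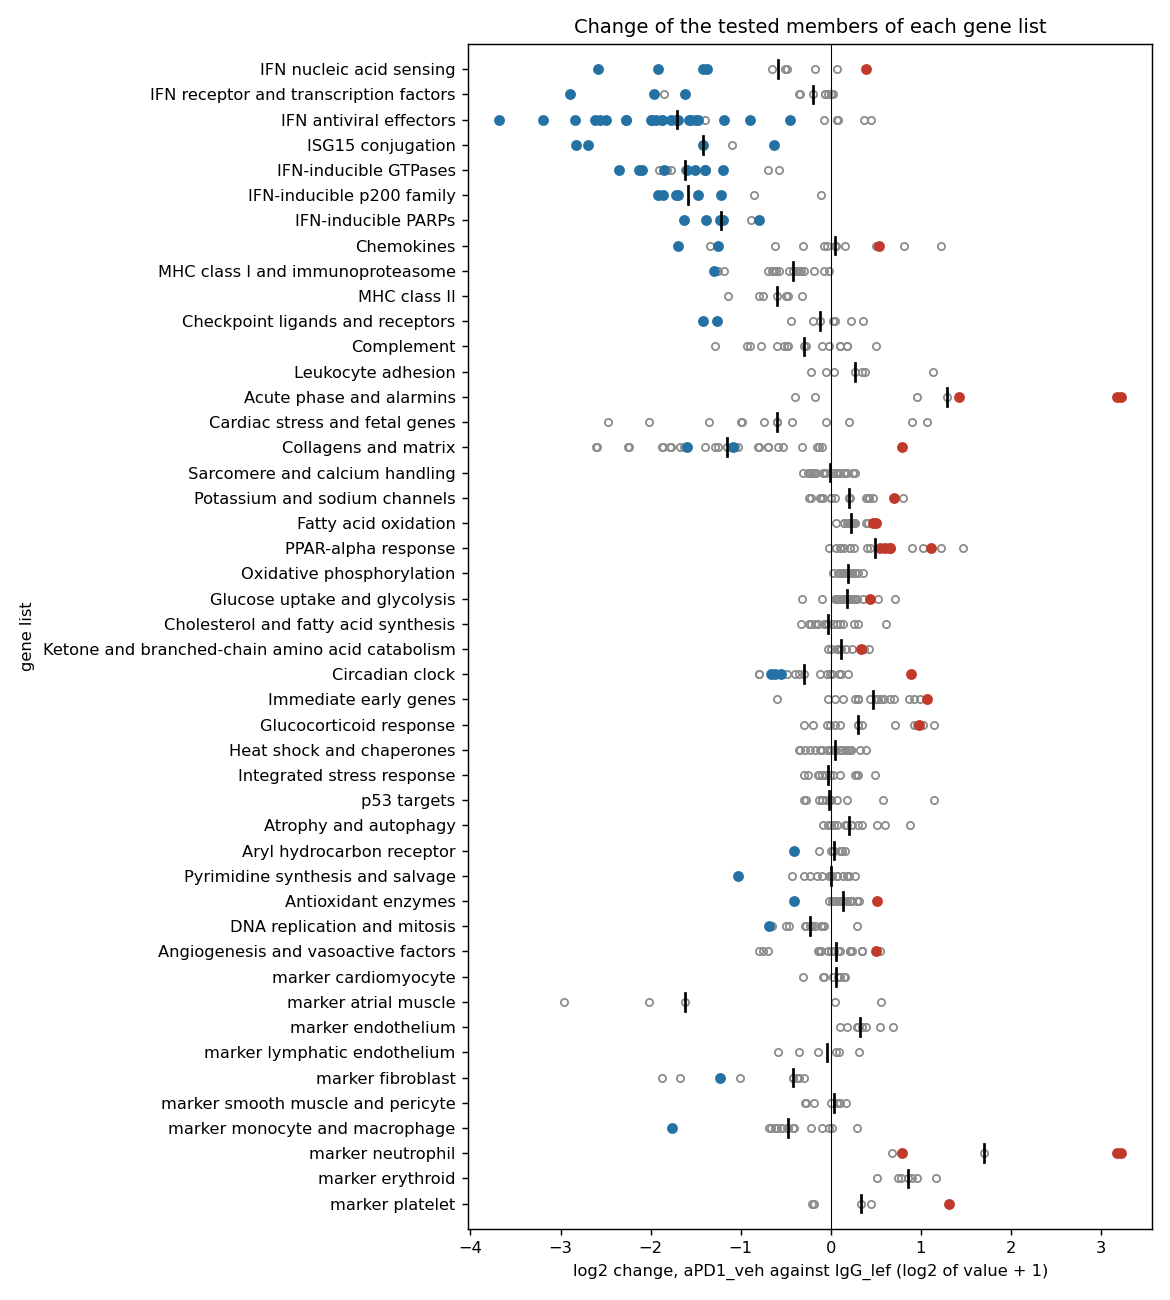
Log2 change of each tested member of the gene lists (x axis, log2 of value + 1, aPD1_veh against IgG_lef). Red filled points rose and blue filled points fell past the threshold, open points did not pass and black bars are list medians. The 7 interferon lists at the top have medians from -0.19 to -1.70, while the sarcomere list is centred at -0.01.

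Interferons also induce many antigen presentation genes. All 19 MHC class I and immunoproteasome genes tested had a fitted change below 0 (median -0.42) under the main fit and the 3 other scalings. Of these, 1 passed (2 with quantile normalization or median-ratio scaling), where 3.49% of all genes tested did. At an unadjusted limma p under 0.05, 9 of the 19 were lower and 0 higher. Groups did not overlap for 7, all lower, where 7.66% of all genes tested were lower without overlap. H2-T23 was 37.8, 42.4, 54.6 and 31.7 in aPD1_veh and 98, 80 and 136.3 in IgG_lef (log2 change -1.30, limma adjusted p = 0.0276; 0.0538 to 0.0806 without aPD1_veh replicate 1 or 2 or IgG_lef replicate 1 or 3). The classical genes overlapped, with H2-K1 at 102.6 to 349.4 against 218.1 to 420.7 and B2m at 294.0 to 997.8 against 627.5 to 1230.1. None of 7 class II genes passed in limma (median -0.59), and 2 had an unadjusted p under 0.05. H2-T24, a neighbouring class I-like gene outside the lists (chr17:36003471-36020800), had the smallest p of all genes and was chosen after its values were seen. It was 7.71, 9.04, 8.14 and 8.48 against 26.8, 25.4 and 31.8, a log2 change of -1.63 ± 0.0958 (SE, limma adjusted p = 1.90e-04), with replicates close together in both groups. Of 17 complement genes none passed in limma (median -0.29), and 1 had an unadjusted p under 0.05.

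Of 9 checkpoint genes tested, Cd274 and Lgals9 fell and 7 did not pass (median -0.12), where 1.86% of all genes tested fell. Cd274 (chr19:29362107-29388095), the gene of PD-L1, was 7.74, 5.13, 4.6 and 4.11 in aPD1_veh and 16.1, 11.6 and 20.9 in IgG_lef. The groups did not overlap, and the log2 change was -1.42 ± 0.232 (SE, limma adjusted p = 0.0205). That call was lost without aPD1_veh replicate 2 (0.0706) or 3 (0.0633) or IgG_lef replicate 1 (0.0685) or 3 (0.0523). Lgals9, which encodes galectin-9, a ligand of the receptor TIM-3, was 22.4, 21, 20.3 and 16.5 against 42.9, 43.9 and 62.6 (log2 change -1.26 ± 0.149 SE, limma adjusted p = 0.00452) and passed without any 1 library. Pdcd1 itself was at most 0.139 in the 7 libraries and was not tested.

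Among 15 chemokine genes tested, Cxcl12 rose, Cxcl9 and Ccl12 fell and 12 did not pass (median 0.05), where 3.49% of all genes tested passed. Cxcl12, which retains leukocytes and progenitors through CXCR4, was 74, 81.6, 78.3 and 82.9 in aPD1_veh and 53.6, 53.6 and 55.6 in IgG_lef. The gap was wider than the range within either group, with a log2 change of 0.54 ± 0.0708 (SE, limma adjusted p = 0.00544) that passed in every leave-one-out fit. Cxcl9, an interferon-induced attractant of T cells, was 1.96 to 3.78 against 7.48, 5.7 and 8.79 (log2 change -1.25, limma adjusted p = 0.0119; 0.0544 without IgG_lef replicate 1 and 0.0527 with all 11 libraries). Ccl12, an attractant of monocytes in the mouse, was 3.58 to 6.61 against 19.9, 9.38 and 24.6 (log2 change -1.70, limma adjusted p = 0.0444), and passed in the leave-one-out fits only without IgG_lef replicate 2 (0.0663 to 0.114 without the others).

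On the scale of the fit, log2(value + 1), the largest increases among the genes named by size were those of S100a9 and S100a8. By ratio of group means Il1b, described below, was 12.8-fold higher in aPD1_veh, from values under 1 in IgG_lef. S100a9 and S100a8, the subunits of the alarmin calprotectin that neutrophils carry, lie together on chromosome 3. S100a9 (chr3:90692630-90695721) was 48.8, 20.9, 30.1 and 24.9 in aPD1_veh and 1.79, 1.28 and 4.45 in IgG_lef. S100a8 was 44.6, 21.3, 31.2 and 21.1 against 0.701, 2.29 and 4.99. In both genes every aPD1_veh library was above 20 and every IgG_lef library below 5. The log2 change of S100a9 was 3.23 ± 0.388 (SE, limma adjusted p = 0.0118) and passed without any 1 library. Its mean was 12.4-fold higher in aPD1_veh, or 20.2-fold without IgG_lef replicate 3. S100a8 had a log2 change of 3.18 ± 0.477 (SE, limma adjusted p = 0.0265) and a mean 11.1-fold higher, or 19.7-fold without IgG_lef replicate 3. The S100a8 call was lost without any 1 aPD1_veh replicate or IgG_lef replicate 2 (0.0551 to 0.0783), and with all 11 libraries neither S100a9 (0.0767) nor S100a8 (0.068) passed.

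Of 14 neutrophil markers, 5 were tested, of which S100a8, S100a9 and Mmp9 rose, where 1.63% of all genes tested did. From the IgG_lef libraries alone only S100a9 would have met the filter, so the others were tested through the group where they are high, and the count is a description. The summed value of all 14 was 50.4 to 108.3 in the aPD1_veh libraries and 3.42, 4.78 and 16.4 in IgG_lef, so the groups did not overlap. Most of each sum came from S100a8 and S100a9 (44.6 and 48.8 of 108.3 in aPD1_veh replicate 1). The sums therefore largely restate the increases of these genes and do not describe the whole list. In bulk tissue, fewer cells of a type and less RNA per cell cannot be told apart. Mmp9, a gelatinase of neutrophils and other cells, was 1.21, 1.15, 1.25 and 1.19 against 0.124, 0.31 and 0.411 (log2 change 0.79 ± 0.116 SE, limma adjusted p = 0.00923). It reached the minimum value in aPD1_veh alone. Retnlg was 2.14 to 6.59 against 0.263, 0.18 and 1.65 and did not pass (log2 change 1.70, limma adjusted p = 0.0703), and Csf3r, the receptor of the growth factor G-CSF, did not either (log2 change 0.68, limma adjusted p = 0.222). Without IgG_lef replicate 3 their ratios of means rose from 6.33 to 19.9 and from 1.98 to 4.03. The granule genes Elane and Mpo, made by precursors in the marrow, were listed at 0 in all libraries but IgG_lef replicate 3 (0.144 and 0.067).

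Il1b, the gene of the inflammatory cytokine interleukin-1 beta, was 3.98, 1.35, 1.7 and 2.23 against 0.19, 0.0725 and 0.278 (log2 change 1.43, limma adjusted p = 0.0154; 0.0502 to 0.0609 without any 1 IgG_lef replicate). Il1b was below the minimum value in all of IgG_lef and was tested through aPD1_veh. Cxcl1, an attractant of neutrophils chosen after its values were seen, was 1.27 to 5.11 against 0.349 to 1.37 and did not pass (limma adjusted p = 0.113). Wfdc21, a secreted protein with a WAP domain, was 1.6, 1.49, 1.07 and 1.05 in aPD1_veh and listed at 0 in all 3 IgG_lef libraries (limma adjusted p = 0.00207), so it too was tested only through aPD1_veh. Among platelet markers, Ppbp, the platelet basic protein, rose and 4 did not pass, where 1.63% of all genes tested rose. Ppbp was 3.93 to 9.12 against 1.32 to 2.81 (log2 change 1.31, limma adjusted p = 0.0389), with the call lost without aPD1_veh replicate 2 or 3 or IgG_lef replicate 1 or 2 (0.0828 to 0.109), with one total (0.055) and with all 11 libraries (0.19). Its neighbour on chromosome 5, Pf4, another platelet chemokine, was 24.9 to 30.6 against 22.9 to 44.8 (log2 change -0.21, limma adjusted p = 0.608; 0.03 on the log2 scale without IgG_lef replicate 3). The median over the 5 platelet markers tested was 0.34.

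**Figure D3:**
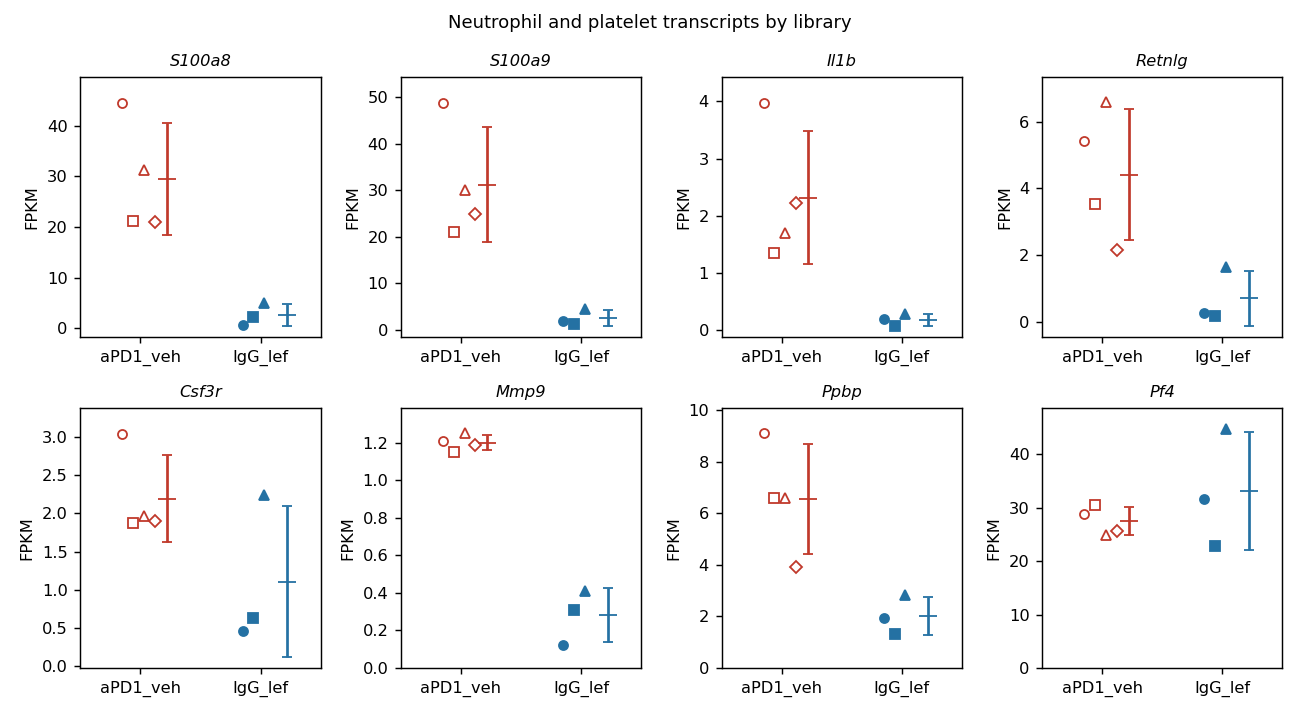
Deposited values (FPKM) of neutrophil and platelet transcripts in the 4 aPD1_veh (open red) and 3 IgG_lef (filled blue) libraries, with mean and SD as bars. S100a8 and S100a9 lie between 20.9 and 48.8 in aPD1_veh and below 5 in IgG_lef, while Csf3r and Pf4 overlap.

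Markers of other immune cells were tested where they reached the filter. Of 16 monocyte and macrophage markers, Fcgr1, an Fc receptor gene that interferon also induces, fell and 15 did not pass (median -0.47). Over all genes tested, 1.86% fell. Fcgr1 was 1.18 to 1.84 against 6.08, 4.88 and 15.6 (log2 change -1.76, limma adjusted p = 0.0429), and its call was lost without any 1 aPD1_veh replicate or IgG_lef replicate 1 (0.0725 to 0.113). The ratio of its means was 0.183, or 0.296 without IgG_lef replicate 3. Adgre1, the macrophage marker F4/80, was 5.38 to 10.7 against 9.21, 6.45 and 21.1, and its fitted change of -0.42 (limma adjusted p = 0.614) became 0.03 without IgG_lef replicate 3. The difference from the neutrophil markers was not tested. T and NK cell markers were low, with a summed value of 3.53 to 4.74 in aPD1_veh and 2.81 to 8.45 in IgG_lef, and 1 of 16 tested. Cd3e was at most 0.18 in the 7 libraries. Of B and plasma cell markers none reached the filter.

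Of the 12 largest increases, 1 was Btnl9. Btnl9, a butyrophilin-like gene of capillary endothelium, was 29.8, 26, 31.2 and 21.1 in aPD1_veh and 9.9, 12.5 and 9 in IgG_lef (log2 change 1.29 ± 0.148 SE, limma adjusted p = 0.00378). The genes that follow were chosen after their values were seen. Cd300lg, a capillary receptor, was 75.4 to 95.9 against 45.8 to 53.3 (log2 change 0.74, limma adjusted p = 0.00568), and Eng, a co-receptor for BMP ligands, was 89.3 to 115.2 against 56 to 62.9 (log2 change 0.73, limma adjusted p = 0.00644). Smad6, an inhibitor and target of BMP signalling, was 10.3, 10.3, 9.5 and 8.5 against 4.97, 5.53 and 3.67 (log2 change 0.90, limma adjusted p = 0.00633). These 4 genes passed in every leave-one-out fit, and with all 11 libraries Btnl9 did not (0.411). Gpihbp1, which carries lipoprotein lipase across capillaries, was 133.0 to 221.8 against 78.5 to 101.8 (log2 change 0.81, limma adjusted p = 0.0439). The Gpihbp1 call was lost without aPD1_veh replicate 1 or 4 or any 1 IgG_lef replicate (0.0789 to 0.146), with quantile normalization (0.0682), one total (0.0722) and median-ratio scaling (0.05), and with all 11 libraries (0.106).

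The 8 general endothelial markers all had fitted changes above 0 (median 0.32, and 0.23 to 0.31 under the other scalings), but none passed in limma, and 5 had an unadjusted p under 0.05. Their summed value was 1495.9 to 2201.1 in aPD1_veh and 1052.3 to 1280.8 in IgG_lef. Among them Pecam1 was 76.1 to 104.7 against 65.1 to 69.4 (limma adjusted p = 0.113) and Kdr, the receptor VEGFR2, 46.2 to 81.5 against 37.8 to 42.7 (0.117). The part of endothelial content in the changes of Btnl9, Cd300lg and Eng was not tested. Of 7 leukocyte adhesion genes none passed in limma, and 4 had an unadjusted p under 0.05. Among them Icam1 was 8.69 to 19.3 against 5.33 to 7.2 (log2 change 1.14, limma adjusted p = 0.0529). Of 20 angiogenic and vasoactive genes, Vegfb, a ligand abundant in heart muscle, rose from 140.7 to 172.1 in IgG_lef to 210.0 to 247.4 in aPD1_veh (log2 change 0.50, limma adjusted p = 0.0222). The Vegfb call was lost without aPD1_veh replicate 2 or IgG_lef replicate 1 or 3 (0.0585 to 0.0684), with median-ratio scaling (0.0591) and with all 11 libraries (0.294). It was the only call of its list, where 1.63% of all genes tested rose.

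Of 20 targets and partners of the fatty acid receptor PPAR-alpha, Acot2, Cd36, Mlycd, Plin5 and Ppargc1a rose, none fell and 15 did not pass (median 0.49), where 1.63% of all genes tested rose. Ppargc1a, a coactivator of mitochondrial genes, was 14.8, 15.9, 15.7 and 16.9 in aPD1_veh and 8.94, 10.8 and 10.7 in IgG_lef (log2 change 0.60 ± 0.0895 SE, limma adjusted p = 0.00951). It passed without any 1 library but not with all 11 (0.0841). Plin5, which coats lipid droplets beside mitochondria, was 66.7, 79.9, 118.1 and 71.4 against 37.3, 36.2 and 38.3 (log2 change 1.12 ± 0.178 SE, limma adjusted p = 0.0157). The IgG_lef libraries lay within a narrow band and all aPD1_veh libraries above it, but the call was lost without aPD1_veh replicate 2 (0.0539) or IgG_lef replicate 1 (0.0609) or 3 (0.0637). Cd36, a fatty acid transporter, was 710.7 to 978.8 against 525.3 to 566.9 (log2 change 0.55, limma adjusted p = 0.0322), lost without aPD1_veh replicate 2 or any 1 IgG_lef replicate (0.0525 to 0.101), with quantile normalization (0.138), one total (0.0707) and all 11 libraries (0.112). Mlycd, which degrades malonyl-CoA, had a log2 change of 0.66 (limma adjusted p = 0.0158; 0.0685 and 0.0697 without IgG_lef replicates 1 and 3; 0.352 with all 11). Acot2, a mitochondrial thioesterase, also had 0.66 (limma adjusted p = 0.029; 0.0696 to 0.11 without aPD1_veh replicate 4 or IgG_lef replicate 1 or 3; 0.208 with all 11).

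In aPD1_veh replicate 3, other genes of the same list stood apart. Pdk4, the kinase that turns off pyruvate oxidation, was 839.8 there and 58.6 to 220.7 in the other aPD1_veh libraries, against 53.3 to 62.6 in IgG_lef (limma adjusted p = 0.465). Angptl4 was 35.3 there and 2.38 to 14.7 in the others, and Ucp3 64.2 and 10.4 to 32.4. Both had their second highest value in aPD1_veh replicate 4. Neither passed, and these genes were chosen after their values were seen.

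All 19 fatty acid oxidation genes had fitted changes above 0 (median 0.23) and 14 had groups that did not overlap, against 11.4% of genes tested, but Ech1 and Etfb were the 2 that passed. Over all genes tested, 1.63% rose. Quantile normalization left 17 of the 19 above 0 and one total 18. Ech1, an auxiliary enzyme of oxidation, was 977.7 to 1287.2 against 742.3 to 867.8 (log2 change 0.50, limma adjusted p = 0.035), and Etfb, an electron carrier subunit, 602.0 to 750.8 against 432.5 to 510.2 (log2 change 0.47, limma adjusted p = 0.0399). Both calls held only without aPD1_veh replicate 1 among the leave-one-out fits (Ech1 0.0574 to 0.117, Etfb 0.0506 to 0.129 without the others). Neither passed with quantile normalization (0.0665 and 0.0763), median-ratio scaling (0.089 and 0.0978) or all 11 libraries (0.458 and 0.545). For oxidative phosphorylation, 18 of 18 genes were fitted above 0 (median 0.19) and none passed in limma, with 5 at an unadjusted p under 0.05, and 11 above 0 and a median of 0.03 under quantile normalization. The fitted direction of these genes thus depended on the scaling, and the library totals also differed between the groups. Ldhb, a lactate dehydrogenase subunit, was the member of 24 glucose and glycolysis genes that rose (log2 change 0.44, limma adjusted p = 0.0389), and Bcat2 of 13 in ketone and branched-chain amino acid catabolism (0.34, 0.0495). Each was the only call of its list, where 1.63% of all genes tested rose. Ldhb held only without aPD1_veh replicate 1 (0.0504 to 0.117 without the others) and was lost with median-ratio scaling (0.0998) and all 11 libraries (0.576). Bcat2 held only without IgG_lef replicate 2 (0.0644 to 0.155 without the others) and was lost with quantile normalization (0.0906), one total (0.093), median-ratio scaling (0.0865) and all 11 libraries (0.273).

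**Figure D4:**
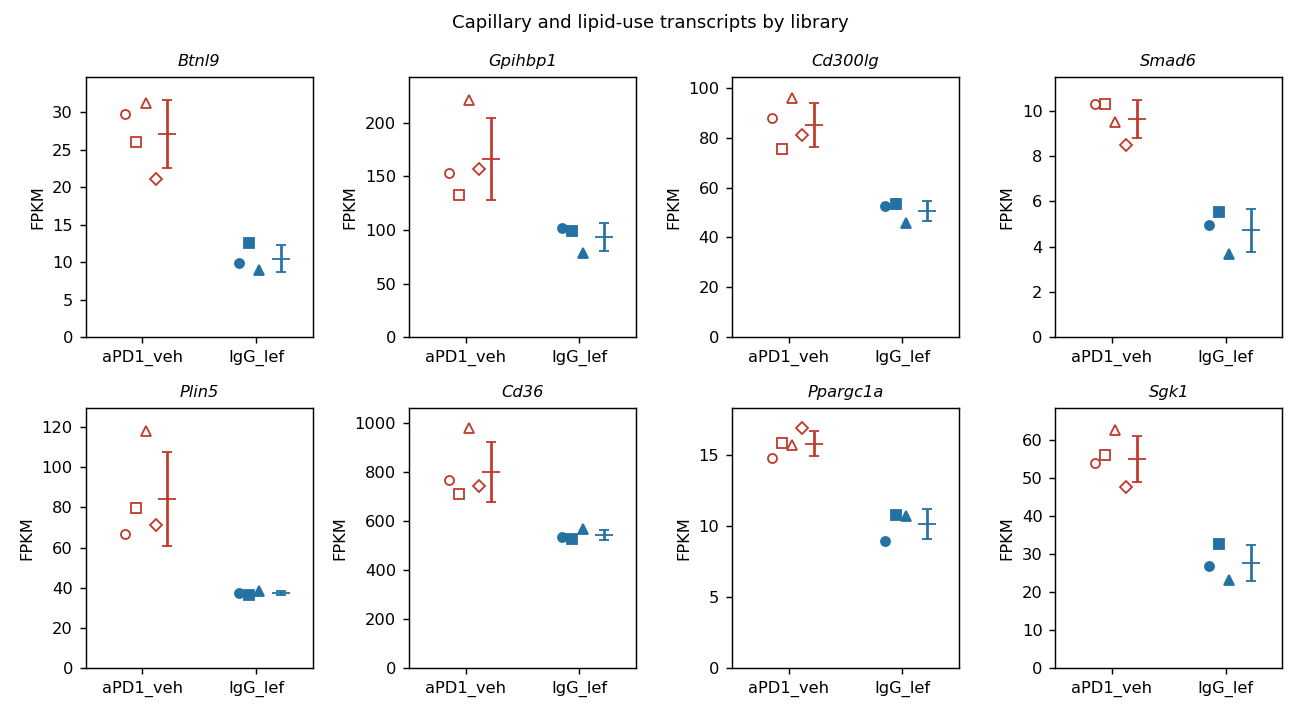
Deposited values (FPKM) of capillary and lipid-use transcripts in the 4 aPD1_veh (open red) and 3 IgG_lef (filled blue) libraries, with mean and SD as bars and axes from 0. All 8 genes were drawn from those called higher in aPD1_veh. Every called gene had groups that did not overlap, so the separation seen follows from that choice.

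Sgk1, a kinase induced by glucocorticoids and salt, was the 1 of 15 glucocorticoid response genes that rose, at 47.7 to 62.7 in aPD1_veh and 23.3 to 32.8 in IgG_lef (log2 change 0.98, limma adjusted p = 0.00463). Kcnk3, a background potassium channel, was the 1 of 18 ion channel genes, at 71.5 to 89.3 against 43.1 to 55.9 (log2 change 0.71, limma adjusted p = 0.01). Both passed in every leave-one-out fit and not with all 11 libraries (0.248 and 0.229). Over all genes tested, 1.63% rose. Mgll, a lipase of monoacylglycerols chosen after its values were seen, was 75.9 to 112.9 against 38.9 to 57.8 (log2 change 0.97, limma adjusted p = 0.0158; 0.064 and 0.0522 without IgG_lef replicates 1 and 3). Among the 12 largest increases were also Apold1, an endothelial immediate early gene, Nr4a3, a nuclear receptor, Nepn, Amy1 and Hbb-b2. Apold1 was 5.54 to 9.47 against 2.53 to 3.41 (log2 change 1.05, limma adjusted p = 0.0132; 0.0609 and 0.0608 without IgG_lef replicates 1 and 3; 0.623 with all 11). Nr4a3 was 1.68 to 3.46 against 0.42 to 0.675 (log2 change 1.07, limma adjusted p = 0.0152). Its call was lost without the same libraries (0.0601 and 0.0701) and with all 11 (0.324). Nr4a3 was the 1 of 20 immediate early genes tested that passed, having reached the minimum value in aPD1_veh alone. Of the 20, 18 were fitted above 0 (median 0.48). At an unadjusted limma p under 0.05, 9 of the 20 were higher and 1 lower. Nepn was 2 to 3.31 against 0.472 to 1.2 (log2 change 1.01, limma adjusted p = 0.0148; 0.0544 without IgG_lef replicate 1). Amy1 and Hbb-b2 have near-identical copies that can share reads, and their calls (limma adjusted p = 0.0406 and 0.0398) held only without aPD1_veh replicate 1 and only without IgG_lef replicate 2. Hbb-b2 reached the minimum value in aPD1_veh alone. With all 11 libraries they missed (0.0625 and 0.0646), as did Amy1 with one total (0.0628) and Hbb-b2 with a pseudocount of 0.1 (0.0836) or no trend (0.0502). None of 7 erythroid markers passed in limma, 2 had an unadjusted p under 0.05 and all were fitted above 0 (median 0.86), and Hbb-bs was 849.4 in IgG_lef replicate 3 and 2451.7 to 4576.9 in the other 6 libraries.

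The circadian clock alternates an activating arm, which includes Arntl (BMAL1), with a repressing arm and output factors such as Per3, Dbp, Tef and Hlf. Of 17 tested, Arntl rose, Per3, Hlf and Bhlhe41 fell and 13 did not pass (median -0.30), where 3.49% of all genes tested passed. Arntl was 1.48, 1.01, 1.91 and 1.31 in aPD1_veh and 0.126, 0.37 and 0.418 in IgG_lef (log2 change 0.89 ± 0.149 SE, limma adjusted p = 0.014; 0.0557 without IgG_lef replicate 1). It reached the minimum value of 1 in aPD1_veh alone, so it was tested through the group where it is high. Per3 was 4.83, 5.82, 5.64 and 4.9 against 8.27, 9.18 and 8.5 (log2 change -0.62 ± 0.0928 SE, limma adjusted p = 0.00951) and passed without any 1 library. Arntl was thus above, and Per3 below, the other group in every library, a separation that all 412 called genes share. Hlf was 4.76 to 6.61 against 8.65 to 9.84 (log2 change -0.66, limma adjusted p = 0.0157; 0.0544 and 0.0681 without IgG_lef replicates 1 and 3). Bhlhe41 was 4.13 to 5.74 against 6.86 to 9.18 (log2 change -0.55, limma adjusted p = 0.0482), and its call was lost without any 1 library (0.0544 to 0.167) and with quantile normalization (0.0577). Per2 and Tef just missed (limma adjusted p = 0.0503 and 0.0537), and Dbp was 31.4 to 69.8 against 69.1 to 92.8 (0.148). The clock gene Nr1d1, chosen after its values were seen, overlapped at 20.5 to 30.6 against 19.6 to 28.9. Its log2 change was 0.09 (limma adjusted p = 0.822). With all 11 libraries none of the 4 genes called passed (0.463 to 0.634). The hour at which hearts were taken is not given in the sources used here, and its part in these values was not tested.

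Of 29 collagen and matrix genes tested, 3 passed, where 3.49% of all genes tested did. Mmp2 and Col8a1 fell and Mmp9, described above, rose. Of the 29, 28 were fitted below 0 (median -1.15). At an unadjusted limma p under 0.05, 17 were lower and 1 higher. Groups did not overlap for 11 that were lower, against 7.66% of all genes tested, and for 1 that was higher. Mmp2, a gelatinase of fibroblasts, was 20.2, 18, 16.6 and 17.8 in aPD1_veh and 30.3, 45.4 and 44.1 in IgG_lef (log2 change -1.08 ± 0.138 SE, limma adjusted p = 0.00533) and passed without any 1 library. Col8a1, a short-chain collagen, was 4.36 to 8.2 against 11.6, 19.2 and 26.3 (log2 change -1.59, limma adjusted p = 0.0398), lost without aPD1_veh replicate 2, 3 or 4 or IgG_lef replicate 2 or 3 (0.081 to 0.116) and with all 11 libraries (0.108). Col3a1 and Postn had their highest value in IgG_lef replicate 3 and did not pass. Col3a1, a fibrillar collagen, was 13.2 to 31.5 against 43.1, 64.3 and 302.8 (log2 change -2.25, limma adjusted p = 0.159). Postn, a matricellular protein of activated fibroblasts, was 10.1 to 21.5 against 29.2, 70.2 and 158.5 (log2 change -2.24, limma adjusted p = 0.115), with a ratio of means of 0.169, or 0.293 without IgG_lef replicate 3. Both had groups that did not overlap.

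Mfap4 (chr11:61485431-61488708), an elastic microfibril protein outside the lists that was chosen after its values were seen, was 8.11, 4.89, 5.4 and 3.54 against 21.6, 32 and 32.8. It had similar values in IgG_lef replicates 2 and 3, and its log2 change of -2.22 ± 0.245 (SE, limma adjusted p = 0.0059) passed without any 1 library. Of 9 fibroblast markers, all fitted below 0 (median -0.42), Lum, a collagen-binding proteoglycan, fell from 62.3, 82.8 and 90.3 in IgG_lef to 39.9, 30.9, 30.3 and 29.7 in aPD1_veh (log2 change -1.23, limma adjusted p = 0.00451) and passed without any 1 library. Dcn and Pdgfra did not pass (log2 change -0.37 and -0.42, limma adjusted p = 0.175 and 0.0997). Lum was the only call of the list, where 1.86% of all genes tested fell. At an unadjusted limma p under 0.05, 8 of the 9 were lower and 0 higher. Groups did not overlap for 4, all lower, where 7.66% of all genes tested were lower without overlap. The summed fibroblast value was 942.9 to 1264.9 in aPD1_veh and 1359.5 to 1769.3 in IgG_lef. Its part in the matrix changes was not tested.

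**Figure D5:**
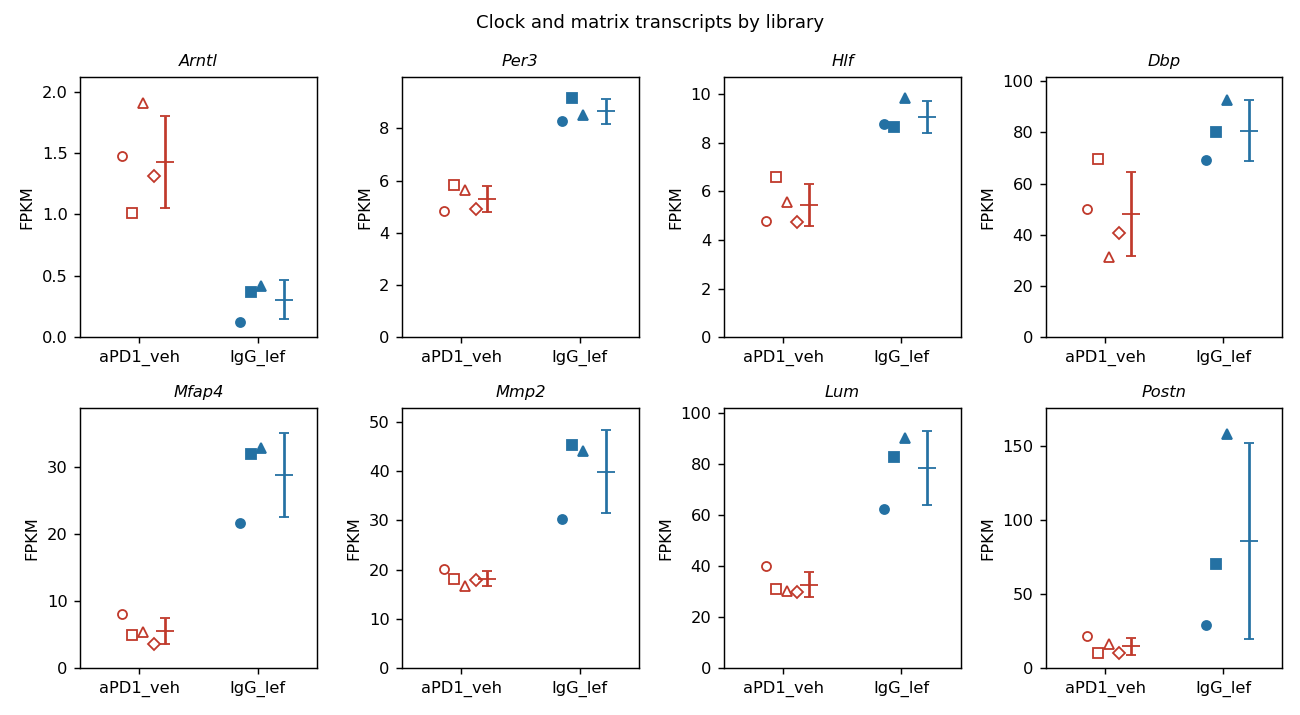
Deposited values (FPKM) of clock genes (top row) and matrix genes (bottom row) in the 4 aPD1_veh (open red) and 3 IgG_lef (filled blue) libraries, with mean and SD as bars and axes from 0. Arntl is higher and Per3, Hlf, Mfap4, Mmp2 and Lum lower in every aPD1_veh library, and Postn spreads from 29.2 to 158.5 within IgG_lef.

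Genes of heart muscle stress did not pass, with 0 of 14 called in limma, 7 at an unadjusted p under 0.05, all 7 lower, and a median of -0.60. Nppa and Nppb, which encode natriuretic peptides, overlapped widely. Nppa was 595.9, 81.6, 129.9 and 27 in aPD1_veh and 172.7, 757.1 and 781.3 in IgG_lef (log2 change -2.02 ± 1.14 SE, limma adjusted p = 0.395), and its ratio of means fell from 0.366 to 0.139 without aPD1_veh replicate 1. Nppb was 673.2, 162.1, 70.1 and 226.3 against 343.2, 488.0 and 390.2 (limma adjusted p = 0.526), with a ratio of 0.695, or 0.375 without aPD1_veh replicate 1. Myh7, the slow myosin that rises with cardiac stress in mice, was 114.9 to 187.3 against 198.8 to 241.6, groups that did not overlap, and did not pass (log2 change -0.59, limma adjusted p = 0.0752). Acta1, a skeletal actin of the fetal heart chosen after its values were seen, was 1208.6, 306.1, 198.2 and 245.3 against 1966.1, 2351.2 and 1817.4 (log2 change -2.47, limma adjusted p = 0.109). None of 20 sarcomere and calcium handling genes passed in limma (median -0.01, 3 at an unadjusted p under 0.05), and none of 8 cardiomyocyte markers (median 0.05, 0 at that p). Myl7, high in IgG_lef replicate 2 alone, did not pass (limma adjusted p = 0.423), and its ratio of means went from 0.00564 to 0.371 without that library and to 0.0032 without aPD1_veh replicate 3.

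Leflunomide's known targets, DHODH and the aryl hydrocarbon receptor, belong to wider lists, whose other genes are not called targets here. In these lists, 1 of 15 pyrimidine genes and 1 of 8 aryl hydrocarbon receptor genes passed. Activity of the enzyme or the receptor was not measured. Over all genes tested, 3.49% did. Dhodh was 7.52, 8.04, 7.59 and 7.15 in aPD1_veh and 6.26, 6.82 and 6.26 in IgG_lef, groups that did not overlap, with a log2 change of 0.20 ± 0.0811 (SE) that did not pass (limma adjusted p = 0.201). Of 15 genes of pyrimidine synthesis and salvage, Dck, the deoxycytidine kinase of the salvage route, fell, at 1.57 to 2.38 against 4.16, 3.96 and 7.73 (log2 change -1.03, limma adjusted p = 0.0295). The Dck call was lost without any 1 aPD1_veh replicate or IgG_lef replicate 1 (0.0517 to 0.0697). Cyp1a1, a widely used target gene of the aryl hydrocarbon receptor, was 2.6, 3.08, 3.8 and 5.15 against 3.64, 3.09 and 3.04, with overlapping groups (log2 change 0.10, limma adjusted p = 0.785; -0.04 without aPD1_veh replicate 4). Nqo1, a target of both that receptor and NRF2, was the 1 of 8 receptor genes that fell, at 34.1 to 40.2 against 47.2 to 52.8 (log2 change -0.41, limma adjusted p = 0.0271). It missed without aPD1_veh replicate 1 or 2 or IgG_lef replicate 1 or 3 (0.051 to 0.0929) and with all 11 libraries (0.0856). Nqo1 is also on the list of antioxidant enzymes, where it fell, Gstm1 rose and 16 of 18 tested did not pass. Gstm1, a glutathione transferase, rose from 128.5 to 137.5 in IgG_lef to 179.1 to 216.0 in aPD1_veh (log2 change 0.52, limma adjusted p = 0.0118). It passed without any 1 library, but not with all 11 (0.13). Of 13 DNA replication and mitosis genes, Ccnd2, a D-type cyclin, fell (16.2 to 23.8 against 27.5 to 38.3, log2 change -0.68, limma adjusted p = 0.0439), lost without aPD1_veh replicate 2, 3 or 4 or IgG_lef replicate 2 or 3 (0.0504 to 0.154) and with all 11 libraries (0.524).

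No member passed in limma in 5 further pathway lists. The tested members with an unadjusted p under 0.05 were 2 of 21 in heat shock (median 0.05), 2 of 14 in the integrated stress response (median -0.03), 2 of 13 among p53 targets (median -0.02), 5 of 14 in autophagy and atrophy (median 0.20) and 3 of 15 in cholesterol and fatty acid synthesis (median -0.03). Nor did any marker of lymphatic endothelium (1 of 6 at an unadjusted p under 0.05, median -0.04), smooth muscle and pericytes (2 of 8, median 0.04), mesothelium (1 of 3, median -0.50), adipocytes (1 of 2, median -0.30) or Schwann cells (1 of 4, median -0.23) pass, nor any of the 5 atrial markers tested (0 at that p). Dendritic cell, thymus and skeletal muscle lists had 1 member tested each, and the lung list none, its summed value being at most 0.479.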

How the data were processed

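The labels' protocols describe TRIzol extraction of heart RNA and a NEBNext Ultra library kit. The authors deposited 1 table of 34714 genes and 12 value columns. The submitters' processing notes name HISAT2, DESeq2 and mm10 but give them no roles. No source used here states the unit. The deposited values were taken as FPKM computed by the authors, since they were not whole and summed to different totals. Whole reads could not be recovered, so no counting interval or floor is given. Of the 12 columns, 11 matched a sample's label and 1 did not and was not used.

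Genes were kept when at least 3 of the 7 libraries reached a value of 1. On log2(value + 1), which understates changes of low genes, limma 3.58.1 was run (linear fit, empirical Bayes with trended, robust variances, statmod 1.5.0, R 4.3.3), with Benjamini-Hochberg adjustment over 11802 genes at 0.05. The test was checked on simulated data. Tables and figures used Python 3.11.15, pandas 2.3.3, NumPy 2.4.6 and matplotlib 3.10.9. Coordinates and promoters come from RefSeq GRCm38.p6, in which all 34714 symbols matched. Exon overlaps come from the GENCODE annotation of the same build.

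The comparison and the 55 gene lists, 19 of them cell type markers, were chosen with earlier results of these data known. The genes named were the 12 largest increases and 12 largest decreases among genes called with non-overlapping groups and a mean of at least 1 in one group (predicted genes skipped), up to 4 members with the smallest p of each list with at least 2 called, and 10 fixed genes. A gene that meets this rule is not reported here. Other genes are named as list members that did or did not pass, or as chosen after their values were seen. Alternatives were 3 scalings, a pseudocount of 0.1, no filter, a filter of 4 libraries, all 11 matched libraries in one fit, no trend, no robust weights, a replicate block, and leaving out each library.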

Additional observations from a re-analysis of the deposited data

Results flagged for a closer look

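In the 4 aPD1_veh libraries, 6 named genes had 1 library far from the other 3 by Dixon's gap test at 95%, which chance alone gives in about 1 of 20 groups. Irf9 was lowest in replicate 4 (7.59, against 11.5 to 12.1), and so was Gbp7 (2.72, against 3.6 to 3.72). Col8a1 was highest in replicate 1 (8.2, against 4.36 to 4.96), as were Csf3r (3.04, against 1.87 to 1.96) and Lum (39.9, against 29.7 to 30.9). Bhlhe41 was lowest in replicate 3 (4.13, against 5.49 to 5.74).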

How the results depend on the processing

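The 412 genes called in limma became 191 without the filter (59 higher and 132 lower), 139 with all 11 libraries in one fit (30 and 109) and 59 with a replicate block (14 and 45), while one total gave 96 higher. Leaving out 1 library gave 172 to 349 genes in all, 50 to 188 higher and 106 to 190 lower. Against 54 interferon list members that fell, 30 did with the replicate block and 37 to 51 with 1 library left out. Same-numbered libraries of the 2 groups had correlations of their deviations of -0.296, -0.0887 and 0.167. All pairs of libraries across the groups ranged from -0.425 to 0.323. With so few libraries, these values cannot decide whether the numbers pair them. The block lost 60 of the 84 calls among named genes. All 11 libraries lost 35 of them and no filter 24, where 23193 genes were tested. The other settings each lost at most 6, and leaving out 1 library 14 to 35. None of the calls among named genes changed sign in a setting that tested the gene. Leaving out 1 library moved uncalled values across 0: the log2 change of Cyp1a1 ranged from -0.04 (without aPD1_veh replicate 4) to 0.22, the log2 change of Nr1d1 from -0.02 (without IgG_lef replicate 1; -0.01 without aPD1_veh replicate 2) to 0.25, the log2 change of Pf4 from -0.44 to 0.03 and the log2 change of Adgre1 from -0.75 to 0.03 (both highest without IgG_lef replicate 3). The log2 change of Cyp1a1 was also -0.04 with the replicate block, and the log2 change of Myh6 was -0.04 with quantile normalization; the cause was not tested. The depth is unknown, so what it limits cannot be stated, and 3 IgG_lef libraries limit the precision.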
